A study of Arabidopsis thaliana with 21 samples.

Results

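The subject is the departure from additivity when the aba2 mutation and GA20OX1 overexpression meet in 1 plant, read from the 12 of 21 arrays that hold the 4 genotypes of that 2-by-2 design. The arrays were chosen by genotype label alone, 3 each for aba2/GA20OX1-OE, aba2, GA20OX1-OE and Col-0. aba2/GA20OX1-OE carries both changes, aba2 the mutation alone, GA20OX1-OE the overexpression alone, and Col-0, the wild-type accession, neither. All plants had been grown in soil to 21 days, and RNA came from the aerial parts, labelled as rosette. The other 9 arrays of the series (aba2/ga20ox1, ga20ox1 and ABA2-OE) did not enter the contrast. They entered the estimate of the spread and the low-signal filter, and some of their values are given for comparison. The series as a whole asks how abscisic acid (ABA) and gibberellin (GA) interact in leaf development. The sources used here do not give the mutant allele, the promoter of the overexpression construct or the number of independent lines. Nor do they say whether replicate arrays hold separate plants, pools or harvests, so the p-values cover the spread among arrays, which may be technical.

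ABA2 encodes a short-chain dehydrogenase of ABA synthesis, and aba2 mutants hold little ABA. GA20OX1 encodes a GA 20-oxidase, one of the enzymes that makes the precursors of bioactive GA, which is bound by GID1 receptors and leads to the breakdown of DELLA growth repressors. ABA and GA are known to oppose each other in germination and in growth, and ABA induces genes of drought and cold protection such as the COR and dehydrin genes.

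The quantity reported is the interaction, (aba2/GA20OX1-OE minus aba2) minus (GA20OX1-OE minus Col-0), on the log2 scale of the deposited signals. It is 0 where overexpression changed a transcript by the same factor in aba2 as in Col-0. A positive value means that the double genotype lay above the sum of both single effects on the log2 scale, the additive expectation. A fold against that expectation is a ratio of signal ratios, and none is given where a genotype mean lay under the low-signal bound of 5.26. Transcripts are probe sets of the array. Of 15922 tested, 8760 were assigned to 1 gene. "Called" means a Benjamini-Hochberg adjusted p under 0.05 from limma over all tested probe sets.

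The median signal per array was 136 to 187 over the 12 arrays, and arrays of the same genotype correlated at 0.960 to 0.983 across probe sets. aba2/GA20OX1-OE replicate 3 had the highest median. The annotation used here named neither ABA2 nor GA20OX1, so the genotype labels were not checked through these transcripts. RCA, which encodes Rubisco activase of leaf chloroplasts, was the 1 leaf marker measured of 8 listed, and its log2 signal was 14.5 to 15.2 on all 12 arrays. No marker of seed or phloem was named.

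Departures from additivity that passed the test were few, and all were positive. The interaction was called for 6 probe sets, 0.0377% of those tested, and 0 were called in the negative direction. At an unadjusted p under 0.05 there were 847 probe sets, 5.32% of those tested, with 468 (2.94%) positive and 379 (2.38%) negative. In 5 of the 6 called probe sets the 3 arrays of aba2/GA20OX1-OE lay above all 9 arrays of the other 3 genotypes. In the remaining 1, aba2 was the genotype that stood apart, below the other 3. The genotype that stands apart was taken as the one whose removal leaves the 3 other means within a range of at most 50% of the interaction's size. The 4 named genes among the 6 are known by locus code only, and the annotation used here gives no role for any of them.

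AT1G72230 had log2 signals of 10.35, 11.55 and 10.31 in aba2/GA20OX1-OE, 8.34, 8.42 and 8.12 in aba2, 9.41, 8.60 and 8.17 in GA20OX1-OE, and 9.13, 8.65 and 8.40 in Col-0. All 3 arrays of the double genotype were above every array of the other genotypes, which overlapped each other. The interaction was 2.45 (SE 0.422, adjusted p = 0.028), a level 5.46-fold above the additive expectation. Overexpression raised this transcript by 2.45 in aba2 (adjusted p = 0.00014), and the difference between GA20OX1-OE and Col-0 was 0.00.

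AT3G25290 behaved alike. Its log2 signals were 8.66, 9.66 and 8.64 in aba2/GA20OX1-OE, 6.39, 7.0 and 6.66 in aba2, 6.67, 6.32 and 6.54 in GA20OX1-OE, and 6.81, 6.88 and 6.23 in Col-0. The double genotype stood apart without overlap, while the other 3 means lay between 6.51 and 6.68. The interaction was 2.43 (SE 0.422, adjusted p = 0.028), or 5.41-fold. Overexpression raised the transcript by 2.3 in aba2 (adjusted p = 0.00026), against a difference of -0.13 in Col-0 (adjusted p = 0.87).

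AT3G48970 had log2 signals of 9.31, 9.98 and 9.46 in aba2/GA20OX1-OE, 7.95, 7.47 and 7.64 in aba2, 8.36, 7.49 and 7.72 in GA20OX1-OE, and 8.40, 7.68 and 8.00 in Col-0. Again the double genotype did not overlap the rest. The interaction was 2.07 (SE 0.364, adjusted p = 0.029), or 4.19-fold.

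AT5G40630 was the dimmest of the 6, with an interaction of 2.90 (SE 0.496, adjusted p = 0.028). Its log2 signals were 8.10, 7.38 and 8.21 in aba2/GA20OX1-OE, 4.95, 5.44 and 5.67 in aba2, 4.63, 5.45 and 5.23 in GA20OX1-OE, and 5.73, 5.73 and 4.92 in Col-0. The transcript was well above the low-signal bound in the double genotype alone. Outside it the levels were near that bound, with the GA20OX1-OE mean of 5.10 under it, and the interaction was 2.32 with the pseudocount.

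The probe set 247638_at, which has no gene name here, followed the same pattern at a higher signal. It had 10.32, 11.31 and 10.64 in aba2/GA20OX1-OE, 8.10, 8.50 and 8.44 in aba2, 8.73, 8.02 and 8.37 in GA20OX1-OE, and 8.03, 7.80 and 8.56 in Col-0. The double genotype averaged 10.76 ± 0.51 (SD, n = 3), against an additive expectation of 8.59. The interaction was 2.17 (SE 0.358, adjusted p = 0.028), or 4.5-fold.

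The probe set 250002_at, also without a gene name, had another shape. Its log2 signals were 7.77, 8.24 and 7.66 in aba2/GA20OX1-OE, 6.73, 6.91 and 6.48 in aba2, 7.43, 7.40 and 7.56 in GA20OX1-OE, and 7.92, 7.79 and 7.92 in Col-0. Here aba2 alone was low, and the double genotype overlapped Col-0. The aba2 mutation lowered the signal by -1.17 in Col-0 (adjusted p = 0.00039), overexpression raised it by 1.18 in aba2 (adjusted p = 0.0017), and the interaction was 1.60 (SE 0.266, adjusted p = 0.028).

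**Figure D1:**
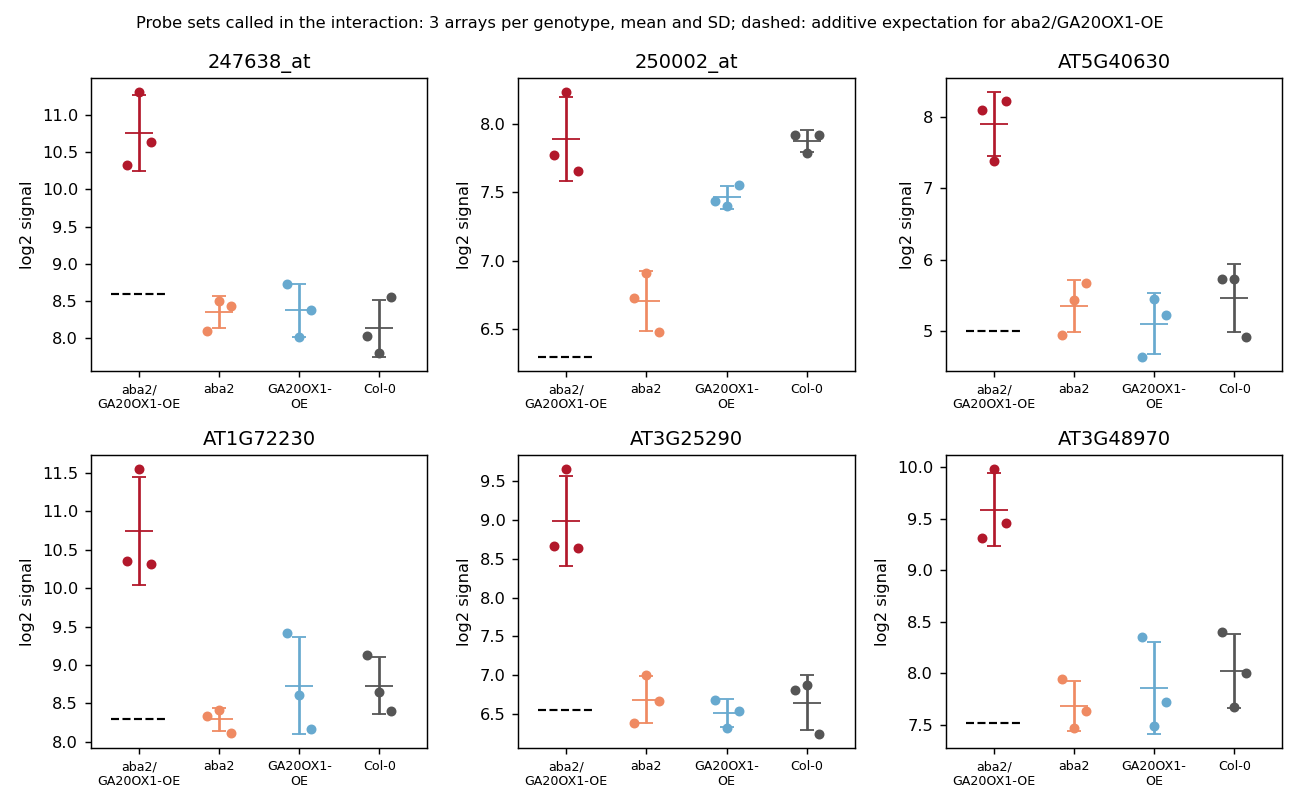
Log2 signal (vertical axis) of the 6 called probe sets in aba2/GA20OX1-OE, aba2, GA20OX1-OE and Col-0, with 1 point per array in replicate order, the mean and the SD (n = 3). The dashed line is the level that additive effects would give in aba2/GA20OX1-OE. In 5 panels the double genotype lies above all other arrays, and in the panel of 250002_at aba2 lies below the others.

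In the 9 arrays of the other 3 genotypes of the series, AT1G72230 had log2 signals of 7.82 to 9.60, AT3G25290 6.36 to 7.91, AT3G48970 7.31 to 8.96, AT5G40630 4.69 to 6.19 and 247638_at 7.57 to 8.36. For these 5 probe sets every array outside aba2/GA20OX1-OE was therefore below every array of it. In aba2/ga20ox1, which pairs the same mutation with loss of GA20OX1, 250002_at averaged 6.96, and in aba2 6.71. Within aba2/GA20OX1-OE, replicate 2 was the highest array for 5 of the 6 probe sets, AT5G40630 being the exception.

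The calls were close to the threshold, while the sizes moved less. Leaving out any 1 of the 12 arrays kept the interaction of AT1G72230 between 2.04 and 2.79, that of AT3G25290 between 2.1 and 2.64 and that of 250002_at between 1.42 and 1.71. None of the 6 stayed called without Col-0 replicate 1, Col-0 replicate 2, GA20OX1-OE replicate 3 or any 1 array of aba2. Without aba2/GA20OX1-OE replicate 2 there were 2 calls, AT5G40630 and PYK10. Fitted on the 12 arrays alone, limma called 1 probe set, and it was not among the 6.

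Among positive interactions of probe sets assigned to 1 gene, the next smallest p-values belonged to 4 genes. They were chosen here after their values were seen, and none passed the test as fitted here. AT2G35120 had log2 signals of 10.71, 11.09 and 11.10 in aba2/GA20OX1-OE, 10.03, 10.19 and 10.11 in aba2, 10.30, 9.99 and 10.05 in GA20OX1-OE, and 10.23, 10.24 and 10.16 in Col-0. The double genotype lay above the other 9 arrays, with an interaction of 0.95 (adjusted p = 0.065). For AT1G03820 (1.34, adjusted p = 0.068) and AT2G01610 (1.66, adjusted p = 0.097) the double genotype was again the one above. These 3 passed the test under some alternatives. AT2G35120 did without the low-signal filter (adjusted p = 0.049) and AT1G03820 with array weights (adjusted p = 0.014), both did with the pseudocount (adjusted p = 0.048 each), and AT2G01610 did with the replicate block (adjusted p = 0.03). For AT3G48550 (1.43, adjusted p = 0.097) it was the GA20OX1-OE mean that stood below, with arrays at 6.57, 6.69 and 6.68, against 7.42, 7.35 and 7.34 in Col-0.

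No negative interaction was called. Among those of probe sets assigned to 1 gene, the smallest p-values (adjusted p = 0.13) belonged to UGT76C2, AT4G29270 and rpl22. UGT76C2, which encodes a cytokinin N-glucosyltransferase, had log2 signals of 7.85, 7.83 and 7.46 in aba2/GA20OX1-OE, 8.23, 7.92 and 8.54 in aba2, 9.0, 8.89 and 8.95 in GA20OX1-OE, and 8.16, 8.49 and 8.38 in Col-0. GA20OX1-OE arrays were the highest and those of the double genotype the lowest, and the interaction was -1.11 (SE 0.240). Between these 2 genotypes the difference did pass the test, -1.23 in aba2/GA20OX1-OE against GA20OX1-OE (adjusted p = 8.7e-05).

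PYK10, a beta-glucosidase of endoplasmic reticulum bodies, had 8.76, 9.45 and 7.83 in aba2/GA20OX1-OE, 9.84, 9.56 and 9.56 in aba2, 10.06, 10.67 and 10.19 in GA20OX1-OE, and 9.94, 9.74 and 9.66 in Col-0. The double genotype was below the rest, with an interaction of -1.50 (adjusted p = 0.19). Without aba2/GA20OX1-OE replicate 2 the value was -1.88 and passed the test (adjusted p = 0.036), in 1 of 12 fits that each left out 1 array. HEME1, a uroporphyrinogen decarboxylase of tetrapyrrole synthesis, had an interaction of -0.74 (adjusted p = 0.21), with GA20OX1-OE the genotype above.

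SWEET1, a sugar transporter, was the one example among these in which aba2 stood above. Its log2 signals were 9.29, 9.06 and 9.34 in aba2/GA20OX1-OE, 10.42, 10.26 and 10.05 in aba2, 9.01, 8.99 and 9.06 in GA20OX1-OE, and 8.86, 9.37 and 9.09 in Col-0. The aba2 arrays did not overlap the others, and the double genotype overlapped Col-0. SWEET1 rose by 1.13 in aba2 against Col-0 (adjusted p = 0.00012) and fell by 1.01 in aba2/GA20OX1-OE against aba2 (adjusted p = 0.0019), while the interaction was -0.92 (adjusted p = 0.25).

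**Figure D2:**
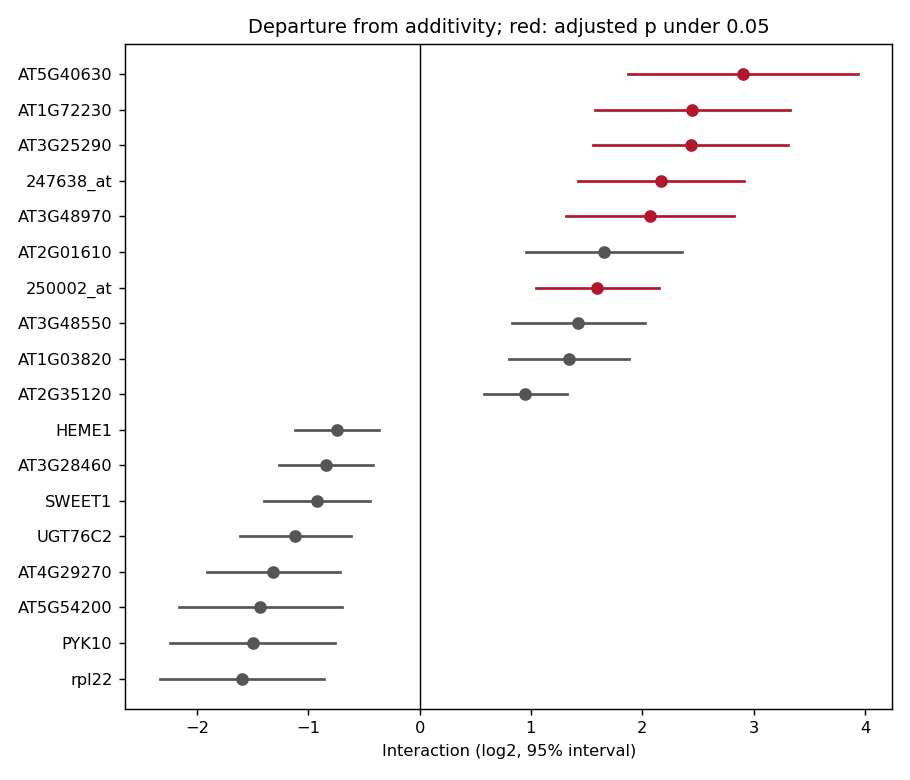
Interaction on the log2 scale (horizontal axis) with its 95% interval from limma for the genes with the 8 smallest p-values in each direction and the 2 called probe sets without a gene name. Called ones are red and the others grey. The called probe sets run between 1.60 and 2.90, and no negative interaction passed the test after adjustment.

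Ranked by size among genes with an unadjusted p under 0.05, the called AT5G40630, AT1G72230 and AT3G25290 were among the largest positive interactions. Uncalled genes also ranked high in size, with wider errors, such as EXLA2 among the positive and QQS among the negative interactions. QQS, an orphan gene that affects starch content, had log2 signals of 10.20, 9.54 and 9.32 in aba2/GA20OX1-OE, 10.83, 10.74 and 10.81 in aba2, 11.19, 6.68 and 11.05 in GA20OX1-OE, and 6.49, 6.36 and 7.78 in Col-0. GA20OX1-OE replicate 2 was at the Col-0 level and its 2 companions were about as high as aba2. The interaction was -3.87 (SE 1.04, adjusted p = 0.32). Without that array it was -5.35 and passed the test (adjusted p = 7.5e-05), in 1 of 12 fits that each left out 1 array. The array is named here for its own QQS value, and leaving it out narrows the spread, so this call is no independent support. QQS averaged 6.70 in aba2/ga20ox1, which also carries the mutation, and lay between 5.83 and 8.27 on the other 9 arrays of the series.

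EXLA2, which encodes an expansin-like protein of the cell wall, had 6.75, 8.39 and 7.10 in aba2/GA20OX1-OE, 5.34, 3.1 and 5.97 in aba2, 7.56, 7.09 and 7.50 in GA20OX1-OE, and 7.84, 7.21 and 7.54 in Col-0. The aba2 arrays were the low ones, with a mean under the low-signal bound, which makes the differences against aba2 uncertain in size. EXLA2 fell in aba2 against Col-0 (log2 difference -2.73, adjusted p = 0.0015) and rose in aba2/GA20OX1-OE against aba2 (2.61, adjusted p = 0.011). The difference between aba2/GA20OX1-OE and GA20OX1-OE was 0.03. The interaction itself, 2.75 (SE 0.711), did not pass (adjusted p = 0.27).

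Over the 847 probe sets with an unadjusted p under 0.05, no single genotype accounted for most departures. Col-0 stood below the other 3 in 153 (18.1%) and aba2/GA20OX1-OE above them in 141 (16.6%). aba2 stood below in 95, GA20OX1-OE above in 74, GA20OX1-OE below in 61, Col-0 above in 59, aba2/GA20OX1-OE below in 54 and aba2 above in 49. In 161 (19.0%) no single genotype stood apart. These shapes are a description, and 5.32% of probe sets reaching this threshold is close to the rate the threshold itself sets.

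The 2 effects that the interaction compares differed in how many calls they gave. Overexpression in aba2 gave 121 called probe sets (0.76%), 100 higher (0.628%) and 21 lower (0.132%). Overexpression in Col-0 gave 3 (0.0188%), all lower. The order was turned at an unadjusted p under 0.05, with 1587 probe sets (9.97%) in aba2 and 2010 (12.6%) in Col-0. The standard deviation of the log2 differences over all probe sets was 0.338 in aba2 and 0.335 in Col-0. No probe set was called in both backgrounds. Across the 15922 probe sets, which are not independent replicates, the 2 effects correlated with r = 0.336 (Spearman's rho 0.349), and they share no array.

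**Figure D3:**
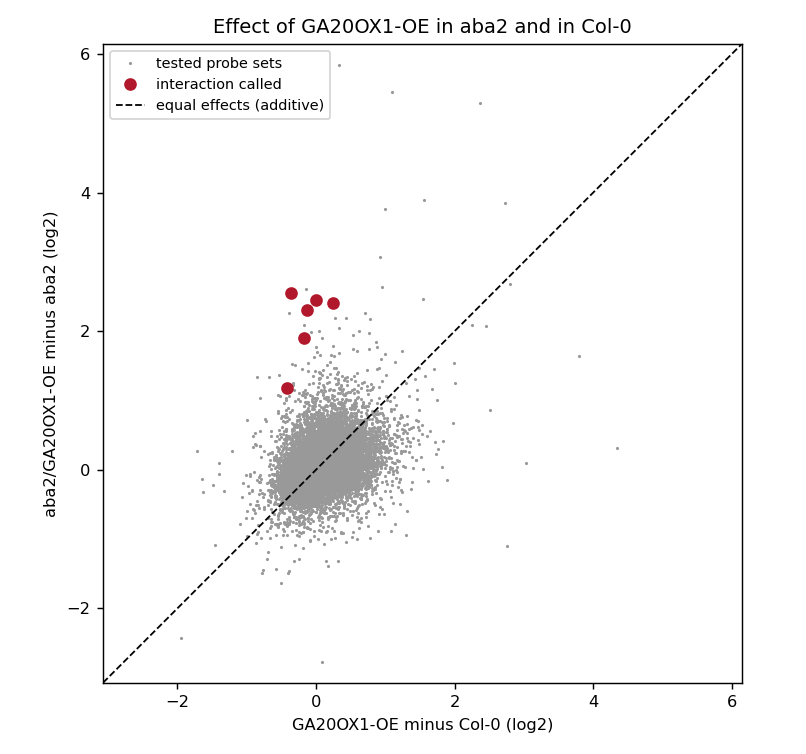
Log2 difference of aba2/GA20OX1-OE minus aba2 (vertical axis) against GA20OX1-OE minus Col-0 (horizontal axis), 1 point per tested probe set. On the dashed line both effects are equal, and the 6 called probe sets, in red, lie above it.

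The transcripts that overexpression raised in aba2 included several that did not pass the interaction test. These genes were picked after the calls were known. WSD1, a wax ester synthase, had log2 signals of 8.53, 8.77 and 9.11 in aba2/GA20OX1-OE, 5.52, 6.93 and 7.15 in aba2, 7.48, 6.41 and 6.81 in GA20OX1-OE, and 6.17, 6.0 and 6.42 in Col-0. It was highest in the double genotype without overlap, rising by 2.27 over aba2 (adjusted p = 0.0032). The difference between GA20OX1-OE and Col-0 was 0.71 (adjusted p = 0.44), and the interaction was 1.56 (adjusted p = 0.75). AT4G21650 rose by 2.05 (adjusted p = 0.0013), AT1G57590 by 1.77 (adjusted p = 0.0059) and AT1G25530 by 1.64 (adjusted p = 0.00034), with interactions of 1.72, 0.89 and 1.37.

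Falls on overexpression in aba2 were fewer. AT3G44970 fell by 1.29 (adjusted p = 0.027), AT5G55450 by 1.18 (adjusted p = 0.015) and AT3G16530 by 1.03 (adjusted p = 0.013). For AT3G16530 the double genotype lay between aba2 and the 2 genotypes without the mutation. AT3G16530 had 11.46, 10.60 and 11.42 in aba2/GA20OX1-OE, 12.08, 12.21 and 12.28 in aba2, 9.04, 9.62 and 9.53 in GA20OX1-OE, and 9.42, 9.45 and 9.59 in Col-0. The jacalin-related lectin gene JAL34 fell by 0.96 (adjusted p = 0.038), to 7.35, 7.35 and 6.96 in aba2/GA20OX1-OE, against 7.78, 8.39 and 8.38 in aba2. The difference between GA20OX1-OE and Col-0 was -0.03, and the interaction was -0.93 (adjusted p = 0.68).

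In Col-0, overexpression lowered AT1G47400, AT1G30260 and 1 probe set without a gene name. AT1G47400 had 6.81, 6.71 and 6.86 in aba2/GA20OX1-OE, 7.38, 7.04 and 6.34 in aba2, 5.46, 6.49 and 6.15 in GA20OX1-OE, and 7.61, 8.06 and 7.37 in Col-0. The fall was 1.65 in Col-0 (adjusted p = 0.041), the difference was -0.13 in aba2 (adjusted p = 0.94), and the interaction was 1.52 (adjusted p = 0.29). AT1G30260 fell by 0.95 in Col-0 (adjusted p = 0.041), and its log2 difference of -0.50 in aba2 did not pass (adjusted p = 0.2).

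Read the other way, the interaction asks whether the aba2 mutation acted alike with and without overexpression. In GA20OX1-OE the mutation gave 720 calls (4.52%), 434 higher (2.73%) and 286 lower (1.8%), and in Col-0 it gave 801 (5.03%), 401 higher (2.52%) and 400 lower (2.51%). Of these, 370 were called in both, 51.4% of those in GA20OX1-OE and 46.2% of those in Col-0, and all 370 had the same sign. Their median absolute interaction was 0.21, the interaction was called for 0 of them, and for 236 the 95% interval lay within 1 log2 unit on either side of 0. Requiring a call in both backgrounds favours probe sets with alike effects. The shared sign and the small interactions therefore follow in part from that choice. Over all tested probe sets the interaction was called for 0.0377%, and the interval lay within that limit for 63.0%. The effects of aba2 in the 2 backgrounds, which share no array, correlated with r = 0.630 (rho 0.410) across all tested probe sets.

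The arrays set a limit on what could be called. The median standard error of the interaction was 0.30 and the median half-width of its 95% interval 0.62. For 10030 probe sets (63.0%) the interval lay within 1 log2 unit of 0, and for 5892 it reached past. The interaction itself reached at least 1 log2 unit in size in 344 probe sets, 181 positive and 163 negative, and its median over all tested was -0.05.

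Of the 152 tested probe sets that belonged to 33 gene lists, none was called in the interaction. At an unadjusted p under 0.05 there were 37 (24.3%), against 5.32% of all tested probe sets. Of these, 24 belonged to the 64 chloroplast-encoded probe sets, whose members are not independent of each other, and 13 to the other 88. Because the lists had been chosen with earlier results of these data known, these shares are not independent of the values tested. The lists were matched by name, and 8 of them, among them ABA signalling, ABA synthesis and GA metabolism, had no tested member. The 14 lists with at least 3 tested members are described by their counts and medians, beside a median of -0.05 over all tested probe sets. Several of these medians moved with 1 array or 1 setting, as given beside them.

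The ABA-induced and cold-induced genes had 5 tested members of 18 listed, and all 5 interactions were positive, with a median of 0.66 (0.39 without aba2/GA20OX1-OE replicate 2) and 2 at an unadjusted p under 0.05, where 2.94% of all tested probe sets were. All 5 fell in aba2 against Col-0, where 2.51% of tested probe sets fell. In aba2/GA20OX1-OE against GA20OX1-OE, where 1.8% fell, the test was passed by 3, COR15A, COR47 and COR15B. COR15A, which encodes a protein that protects chloroplast membranes in the cold, had 9.55, 11.39 and 9.68 in aba2/GA20OX1-OE, 9.40, 9.15 and 8.97 in aba2, 13.13, 13.23 and 12.83 in GA20OX1-OE, and 13.29, 12.82 and 12.39 in Col-0. Both genotypes with the aba2 mutation were low and did not overlap those without it. COR15A fell by 3.66 in aba2 against Col-0 (adjusted p = 3.9e-07) and by 2.86 in aba2/GA20OX1-OE against GA20OX1-OE (adjusted p = 1.3e-05). Its interaction was 0.80 (adjusted p = 0.95) and ranged between 0.21 and 1.13 as single arrays were left out, with aba2/GA20OX1-OE replicate 2 the high array.

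The dehydrin gene LTI30 had 9.03, 9.64 and 9.52 in aba2/GA20OX1-OE, 8.85, 8.67 and 8.36 in aba2, 9.95, 10.02 and 9.45 in GA20OX1-OE, and 10.06, 9.64 and 9.39 in Col-0. The aba2 arrays were the lowest, and those of the double genotype overlapped both GA20OX1-OE and Col-0. LTI30 fell by 1.07 in aba2 against Col-0 (adjusted p = 0.0019), the difference was -0.41 between aba2/GA20OX1-OE and GA20OX1-OE (adjusted p = 0.34), and the interaction was 0.66 (adjusted p = 0.87). HIS1-3, a drought- and ABA-inducible linker histone, had an interaction of 2.2 (adjusted p = 0.58). Its size is uncertain, since the aba2 mean was under the low-signal bound, at 3.89, 3.41 and 5.02, against 7.06, 6.76 and 7.80 in Col-0.

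Genes of GA perception went both ways. Of 6 tested members 3 had positive and 3 negative interactions, with a median of 0.03 and a range of -1.04 to 0.89, and the median lay between -0.11 and 0.21 over the alternatives. The GA receptor gene GID1A had 9.17, 9.21 and 9.03 in aba2/GA20OX1-OE, 9.09, 9.18 and 9.32 in aba2, 9.34, 9.17 and 9.16 in GA20OX1-OE, and 8.83, 9.14 and 8.65 in Col-0. Col-0 held the 2 lowest arrays, and the interaction was -0.41 (adjusted p = 0.94). SLY2, which encodes an F-box protein of DELLA breakdown, rose in aba2/GA20OX1-OE against GA20OX1-OE by 1.12 (adjusted p = 0.013), with an interaction of 0.89 (adjusted p = 0.86).

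Among cell wall genes, the 12 tested expansins, which loosen the wall in growth, had a median of 0.40, with 9 positive interactions and a lowest value of -1.65 for EXPA18. The 5 tested xyloglucan endotransglucosylase genes (XTH) had a median of 0.36, with 4 positive. Without aba2/GA20OX1-OE replicate 2 these medians were 0.23 and 0.06, and with array weights 0.20 and 0.06. EXPB1 had 7.61, 7.42 and 7.45 in aba2/GA20OX1-OE, 6.76, 6.77 and 6.79 in aba2, 7.99, 7.98 and 7.86 in GA20OX1-OE, and 8.63, 8.31 and 7.65 in Col-0. It was lowest in aba2, where it fell by 1.42 against Col-0 (adjusted p = 0.0011), and its interaction was 0.97 (adjusted p = 0.8). XTH16 had an interaction of 0.71 (adjusted p = 0.91).

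The chloroplast-encoded genes, which are transcribed in the plastid, formed the largest list, with 64 tested of 78 listed. Their median interaction was -0.66, 55 of the 64 were negative, 24 were negative at an unadjusted p under 0.05 (2.38% of all tested probe sets) and 0 positive. None was called. The median was between -0.86 and -0.48 as single arrays were left out, and -0.37 with array weights. The mean log2 signal of the list was 10.25, 9.59 and 9.76 in aba2/GA20OX1-OE, 10.10, 10.27 and 10.42 in aba2, 10.21, 10.23 and 9.96 in GA20OX1-OE, and 9.85, 10.20 and 9.58 in Col-0. The 4 genotypes overlapped, and the lowest arrays were 2 of the double genotype and 2 of Col-0. The members share the plastid and its RNA, so these transcripts are not independent of each other. The 7 tested nuclear genes of photosynthesis had a median of 0.12.

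By complex, the 3 subunits of the plastid RNA polymerase had a median of -1.35, the 5 of photosystem I -0.86, the 14 ribosomal genes -0.73, the 15 of photosystem II -0.43 and the 9 of the NDH complex -0.05. The ribosomal protein gene rpl22 had 11.47, 11.53 and 11.94 in aba2/GA20OX1-OE, 11.50, 12.23 and 12.66 in aba2, 12.52, 12.45 and 12.54 in GA20OX1-OE, and 11.37, 11.45 and 11.34 in Col-0. Col-0 was lowest in all arrays, GA20OX1-OE was uniformly high and aba2 spread widely. The interaction was -1.60 (SE 0.354, adjusted p = 0.13), and with array weights it was -1.77 and passed the test (adjusted p = 0.014). The polymerase gene rpoC1 had 8.32, 7.88 and 8.33 in aba2/GA20OX1-OE, 8.08, 8.87 and 9.39 in aba2, 8.68, 8.37 and 8.16 in GA20OX1-OE, and 7.36, 7.79 and 7.81 in Col-0. Col-0 lay below all others, and the interaction was -1.35 (adjusted p = 0.58).

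**Figure D4:**
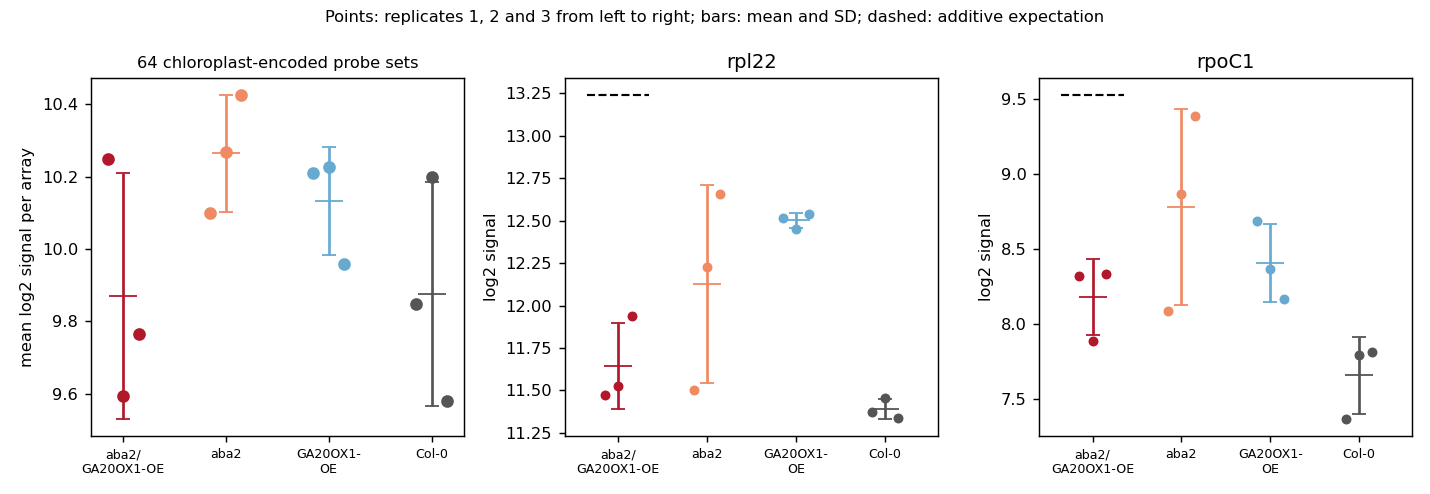
Mean log2 signal of the 64 chloroplast-encoded probe sets per array (left), and log2 signal of rpl22 and rpoC1 (middle and right), in aba2/GA20OX1-OE, aba2, GA20OX1-OE and Col-0, with 1 point per array, the mean and the SD (n = 3). The dashed lines give the additive expectation for aba2/GA20OX1-OE, and for both genes the double genotype lies below it while Col-0 is the lowest genotype.

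Of 17 flower and anther markers listed, 5 were named and 3 tested, and the 3 did not move alike. Their summed signal was 1096 to 1812 in aba2/GA20OX1-OE, 211 to 904 in aba2, 387 to 578 in GA20OX1-OE and 347 to 428 in Col-0, so the double genotype lay above the other 9 arrays. ATA27 alone made up 62.2% to 73.5% of that sum in the double genotype, against 0.8% to 6.1% in Col-0. ATA27, a beta-glucosidase gene of the anther tapetum, had 9.60, 10.38 and 9.91 in aba2/GA20OX1-OE, 5.33, 9.42 and 8.92 in aba2, 7.30, 3.47 and 6.06 in GA20OX1-OE, and 1.72, 4.42 and 3.3 in Col-0. It rose in aba2/GA20OX1-OE against GA20OX1-OE by 4.36 (adjusted p = 0.014), where 2.73% of tested probe sets rose, and it rose in aba2 against Col-0 (adjusted p = 0.0066). The Col-0 mean of 3.15 lay under the low-signal bound, so the size of that rise and of the interaction (adjusted p = 0.99) is not measured.

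ACT11, an actin gene expressed in reproductive tissue, had 8.12, 8.75 and 8.85 in aba2/GA20OX1-OE, 7.30, 7.65 and 7.44 in aba2, 8.51, 8.34 and 8.40 in GA20OX1-OE, and 8.46, 8.28 and 8.23 in Col-0. Only aba2 was apart, and below, and the double genotype overlapped GA20OX1-OE and Col-0. ACT11 fell in aba2 against Col-0 (-0.86, adjusted p = 0.0081) and rose in aba2/GA20OX1-OE against aba2 (1.11, adjusted p = 0.0036), with an interaction of 1.02 (adjusted p = 0.3). INO, a transcription factor of ovule development, rose in aba2/GA20OX1-OE against aba2 (adjusted p = 0.03), where its mean lay under the low-signal bound in aba2, and its arrays in the double genotype overlapped those in GA20OX1-OE and Col-0. The part of reproductive tissue in the 5 probe sets that were high in aba2/GA20OX1-OE was not tested. In bulk tissue, fewer cells of a type and less RNA per cell cannot be told apart.

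Markers of root and guard cells were few. Root markers had 2 tested members of 9 listed, PYK10 described above and EXPA18, and PYK10 made up 73.4% or more of their summed signal on every array. That sum was 310 to 722 in aba2/GA20OX1-OE, 812 to 985 in aba2, 1097 to 1696 in GA20OX1-OE and 844 to 1010 in Col-0. EXPA18 averaged 5.63 in aba2/GA20OX1-OE, 5.91 in aba2, 5.53 in GA20OX1-OE and 4.16 in Col-0, so it was not lowest in the double genotype. The 2 guard cell genes, SPCH and FMA, which act in stomatal development, had interactions of -0.58 and -0.25 (adjusted p = 0.97 each).

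The other lists held smaller medians or few members. SWEET sugar transporters (12 tested) had a median of 0.10, plant defensins (5) 0.26, glucosinolate genes (5) 0.08, flavonoid genes (5) -0.26, auxin response genes (4) -0.40, flowering time genes (4) -0.57 and senescence genes (4) -0.65. Over the alternatives the median changed sign for SWEET genes (-0.05 to 0.19), defensins (-0.03 to 0.32), glucosinolate genes (-0.14 to 0.27), flavonoid genes (-0.52 to 0.48) and flowering time genes (-0.71 to 0.25). It lay between -0.67 and -0.09 for auxin response genes and between -0.85 and -0.45 for senescence genes. The defensin gene PDF1.2b, an ethylene and jasmonate response gene, had 10.95, 9.14 and 10.84 in aba2/GA20OX1-OE, 11.43, 11.77 and 12.04 in aba2, 7.58, 9.73 and 7.49 in GA20OX1-OE, and 9.18, 8.19 and 9.17 in Col-0. All 3 aba2 arrays were the highest. The aba2 mutation raised this signal by 2.04 in GA20OX1-OE (adjusted p = 0.0085) and by 2.90 in Col-0 (adjusted p = 0.00029), and its interaction was -0.85 (SE 0.639, adjusted p = 0.97). Its probe set can take up transcripts of near-identical defensin genes.

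**Figure D5:**
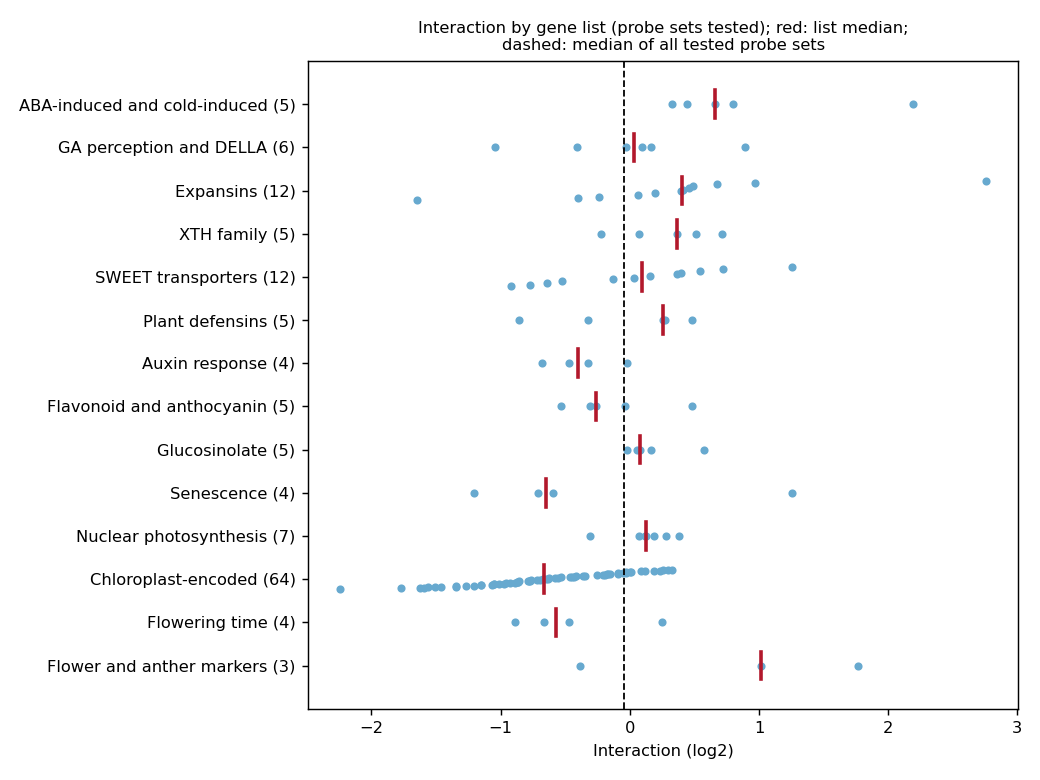
Interaction on the log2 scale (horizontal axis) for the tested members of the 14 gene lists with at least 3, with the number of probe sets in brackets, 1 point per probe set and a red bar at the list median. The dashed line is the median of all tested probe sets, -0.05. Chloroplast-encoded genes lie mostly below 0, ABA-induced and cold-induced genes lie above it, and no member was called.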

How the data were processed

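The authors' deposited values are single-channel Affymetrix signal intensities on a linear scale, made with MAS5 per the submitters' processing notes. Scaling target, detection calls and raw scans were not used here. Signals were logged to base 2 without further normalization, the 64 control probe sets were left out, and so were the 30% with the lowest mean log2 signal over 21 arrays (bound 5.257, a signal of 38.24), which kept 15922. The R 4.3.3 package limma 3.58.1 fitted the means of all 7 genotypes in 1 model of 21 arrays, with trended eBayes and no block, two-sided, and p-values were adjusted over 15922 probe sets for each of 5 comparisons. Tables and figures used Python 3.11.15 with pandas 2.3.3, scipy 1.17.1 and matplotlib 3.10.9. The annotation lists 14016 probe sets, 13436 with 1 gene after matching to TAIR10.1 gene names. No sequence or genome position was used.

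The members and gene lists were chosen with earlier results of these data known. The rule for named genes takes called probe sets with 1 gene, largest first, and, where a list has no called member, the 2 with the smallest p. Since few were called, other genes were added after their values were seen: the 8 smallest p-values per direction, the largest sizes, the called genes of the overexpression effects, and all tested members of the ABA-induced, cold-induced and flower lists. The fit was tested on data simulated with independent noise, with 50 probe sets changed at each size. It recovered 0% of interactions of 0.5 log2 units, 24% of 1, 82% of 2 and 100% of 3, with 6 false calls. Many more probe sets passed there than in the data, which eases the adjusted threshold. These shares can therefore overstate the recovery in the data. All genotypes but aba2/GA20OX1-OE were simulated with equal means. With 3 arrays per genotype, their number limits the precision.

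Alternatives were array weights, the 12 arrays alone, no trend, no filter, a 50% filter (11373 kept), a pseudocount of 20.1, quantile normalization, a replicate block, leaving out each of the 12 arrays, and leaving out GA20OX1-OE replicate 2 with aba2/GA20OX1-OE replicate 3. The choice of that pair did not rest on a test. Within its genotype, GA20OX1-OE replicate 2 correlated at 0.972 to 0.975 with the other arrays, and aba2/GA20OX1-OE replicate 3 at 0.960 to 0.971.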

Additional observations from a re-analysis of the deposited data

Results flagged for a closer look

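In 6 probe sets the effect of GA20OX1 overexpression differed between aba2 and Col-0 by the interaction test itself, which is also what chose them. On the log2 scale the differences between these effects were 2.45 for AT1G72230, 2.43 for AT3G25290, 2.17 for 247638_at, 2.07 for AT3G48970 and 1.60 for 250002_at. For AT5G40630 the difference was 2.90, and 2.32 with the pseudocount, and it lay near the low-signal bound in 3 of the 4 genotypes. With 3 arrays per genotype, no single array was tested for standing far from its group.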

How the results depend on the processing

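The 6 interaction calls became 10 with array weights (9 positive, 1 negative), 10 with the pseudocount, 2 without the trend, 1 on the 12 arrays alone, and 3 with 2 arrays left out together, GA20OX1-OE replicate 2 along with replicate 3 of aba2/GA20OX1-OE. All 6 were kept with array weights, no filter, the pseudocount and quantile normalization. With the 50% filter 4 were kept, since AT5G40630 and AT3G25290 were filtered out before the test. Without the trend 2 were kept, and 0 on the 12 arrays alone or with the 2 arrays left out together. Leaving out 1 array gave 0 to 13 interaction calls, 43 to 157 for overexpression in aba2, 0 to 7 for overexpression in Col-0, 412 to 745 for aba2 in GA20OX1-OE, 491 to 844 for aba2 in Col-0, and 0 to 1 member of the gene lists.

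Overexpression in aba2 gave 387 calls with array weights, against 121. Overexpression in Col-0 gave 0 with array weights, without the filter and without the trend, 1 on the 12 arrays alone, and 8 with the 2 arrays left out, against 3. aba2 in GA20OX1-OE gave 1384 with array weights and 321 with the 2 arrays left out, against 720. The gene lists had 1 call with array weights, rpl22. The causes were not tested.

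The reported fit did not pair arrays by replicate number, since no label says what that number stands for. Deviations from the genotype means correlated at 0.027 to 0.398 between same-numbered arrays, above 0.1 in 14 of 18 pairs. By average correlation, 11 of 12 arrays matched their own number best. Same-numbered arrays thus shared some variation, which the reported fit leaves in the spread. With the replicate block the interaction gave 8 calls, all 6 among them, and overexpression in Col-0 gave 7.

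Of 1591 values of 77 named probe sets under an alternative, 1497 kept direction and side of the threshold, 68 lost the call, 18 gained one and 8 changed sign. The last were uncalled: PORB (0.05 with array weights, -0.609 to -0.081 over the single arrays left out, and -0.30 as reported), AOP1 (-0.142 with array weights, and -0.075 to 0.308 over the single arrays left out, 0.16 as reported) and ATA27 (0.529 with the pseudocount, and -1.665 to 0.459 over the single arrays left out, -0.39 as reported, with Col-0 near background). Signals near background limit the dim genes, and 3 arrays per genotype the rest.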
